A study of Clarias macrocephalus with 14 samples.

Results

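On scaled levels, a set of 98 Gene IDs stood above every other age at 17 days post fertilization (dpf) in fry of the air-breathing catfish Clarias macrocephalus. They were found among 23837 all-digit Gene IDs, of which 18644 passed a low-count filter. The members were chosen by their level at 17 dpf itself, on read counts summed per Gene ID and given as CPM (counts scaled to a common library size, 1e+6). A member had a 17 dpf mean of at least 20 CPM and both of its 17 dpf libraries above the other 12. Its 17 dpf mean plus 1 was at least 2 times the highest mean of the other 6 ages plus 1, and that ratio is called the score. The 60 Gene IDs with most counts at 17 dpf were left out, and the rule's upper limit of 150 members was not reached. Because these values chose the members, the peak at 17 dpf is described here and not tested.

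The study followed transcript levels through early development, in a search for genes tied to breathing air. Groups were defined by age alone, at 3, 5, 13, 14, 16, 17 and 24 dpf, with 2 libraries each and 14 in all. All libraries came from the whole body of fry of unrecorded sex, and no treatment, strain or genotype is named in the labels. RNA was depleted of ribosomal RNA. Nothing in the labels says that the replicates were separate spawns or tanks, so each p-value covers just the spread between the libraries at hand, and that spread may be technical.

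Clarias catfishes breathe air with branched organs in a chamber above the gills, which form as the larva becomes a juvenile, while the gut, skin, muscle and blood also mature. A peak at a single age in whole fry can reflect many tissues at once. In such bulk samples, more cells of a type and more RNA per cell cannot be told apart. The deposited table carries numeric Gene IDs and Trinity transcript names without gene names, so no function is given for any member, and markers of tissues could not be checked. Trinity is a program that assembles transcripts from reads without a genome. A single Gene ID in the table can cover splice forms, fragments of a long mRNA or copies of a repeated sequence. Which of these applied to the members was not tested.

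The shallowest library, replicate 2 of 24 dpf, held 1460853 counts and the deepest, replicate 2 of 16 dpf, 8837320. The make-up of the libraries shifted at the 2 last ages. The 60 Gene IDs with most counts at 17 dpf held 68.6% and 67.4% of counts there and 70.8% and 65.1% at 24 dpf, and 22.1 to 40.2% in the libraries of the 5 earlier ages. The factors used for scaling (TMM, trimmed mean of M values) were 0.553 and 0.657 at 17 dpf and 0.391 and 0.505 at 24 dpf, against 1.22 to 1.41 elsewhere. TMM-scaled levels at 17 and 24 dpf depend on these factors.

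The members together held 0.908% and 0.864% of the counts in the 2 libraries of 17 dpf, without any scaling. That share was 0.886% ± 0.0312 (SD, n = 2), above each of the other 12 libraries. At 14 dpf it was 0.436% ± 0.00666 (SD, n = 2), the next highest. The 16 dpf libraries gave 0.377% ± 0.00345 and those of 3 dpf 0.358% ± 0.00393. Lower still were 13 dpf with 0.332% ± 0.0206 and 5 dpf with 0.242% ± 0.0132. At 24 dpf the mean share was the lowest, with 0.201% and 0.257% in the 2 libraries, which overlapped those of 5 dpf (0.252% and 0.233%). On the TMM-scaled values the order at 24 dpf was different. The median over members was 53.4 and 52.1 CPM in the 17 dpf libraries and 12.9 and 13.8 CPM in those of 24 dpf. For 14 dpf it was 12.3 and 12.5 CPM, and 6.58 to 10.9 CPM in the libraries of 3, 5, 13 and 16 dpf. By this scaled median 24 dpf therefore ranked second, and by the unscaled mean share it ranked last, while 17 dpf was first on both. These are values over the whole set. Member by member on scaled means, 14 dpf was second in 40 members and 24 dpf in 37. Taken one by one without scaling, 94 of the 98 members had their highest mean at 17 dpf. In 67 both unscaled 17 dpf libraries were above the other 12, as in 1.27% of all tested Gene IDs. The members were chosen on scaled values of these same counts, so the excess over 1.27% is no separate evidence. When the whole rule was applied at unscaled totals, 23 of the 98 stayed.

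**Figure D1:**
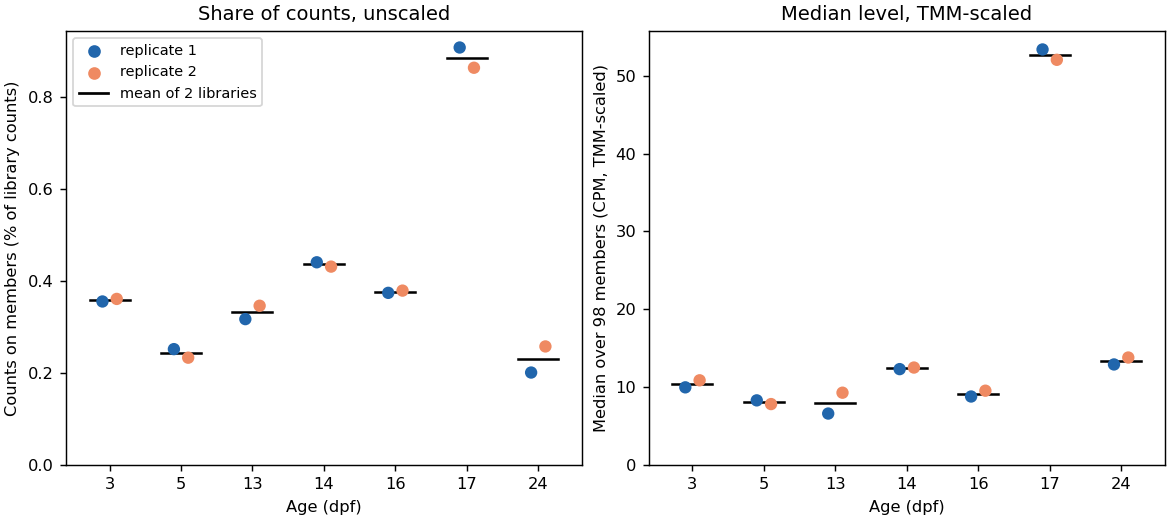
Counts on the 98 members as a percent of each library's counts without scaling (left) and the median TMM-scaled level over members in CPM (right), against age in dpf. Points are libraries and lines are means of 2 libraries. The 17 dpf libraries stand highest in both panels. The 24 dpf mean is lowest on the left (libraries 0.201% and 0.257%), where its libraries overlap those of 5 dpf (0.252% and 0.233%). On the right the 24 dpf libraries are next to 14 dpf.

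Levels at 17 dpf spanned a wide range. The 17 dpf mean was 20 CPM in the lowest member, 52.2 in the median member and 1510 in the highest. The ratio of the 17 dpf mean to the highest other mean was 2.65 in the median, with quartiles of 2.28 and 3.56. Steep peaks were few, since 33 members had a score of 3 or more and 10 a score of 5 or more. Over the 12 other libraries taken as the base, the median member was 2.19 log2 units up at 17 dpf. On the same scale 14 dpf followed with 0.31 and 24 dpf with 0.26. The medians of 16 dpf (-0.07) and 3 dpf (-0.11) lay near the base, and those of 13 dpf (-0.35) and 5 dpf (-0.54) under it. Of all tested Gene IDs, 1267 (6.8%) had both 17 dpf libraries above the other 12, a step the rule requires of every member.

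**Figure D2:**
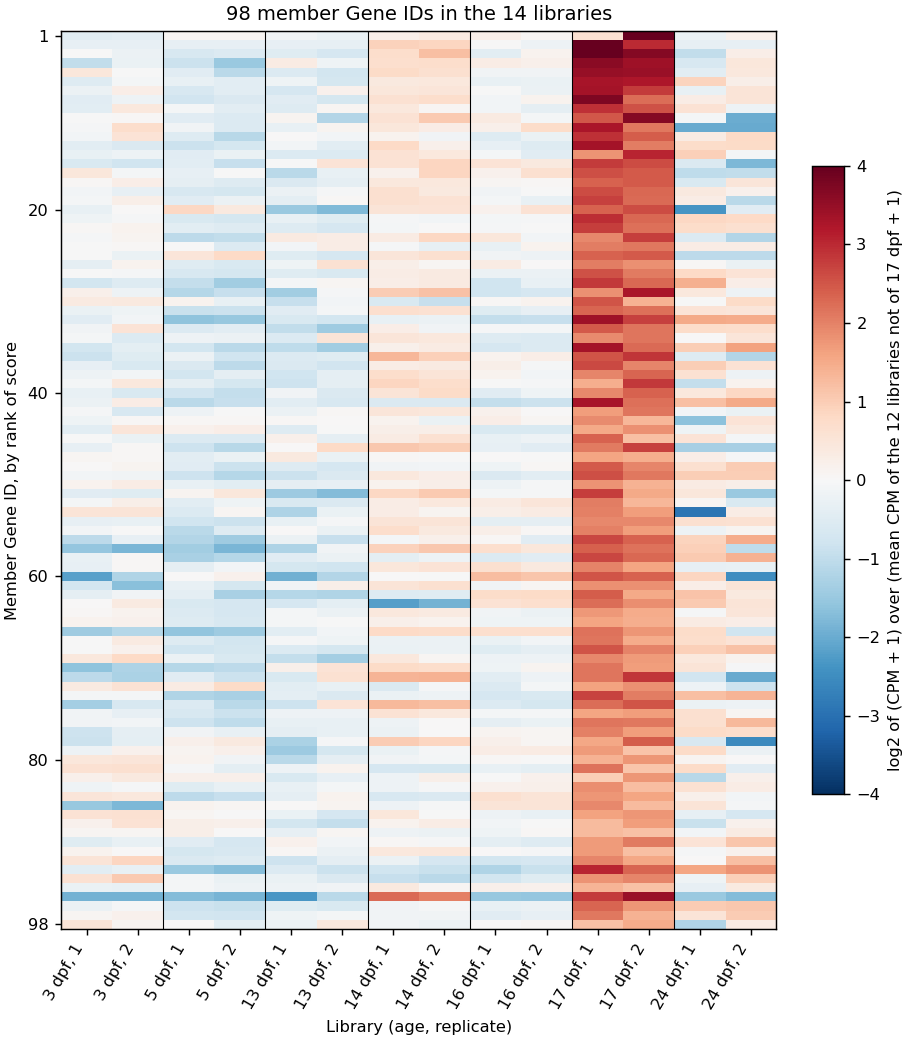
Level of each of the 98 members (rows, by rank of score) in the 14 libraries (columns, age and replicate), as log2 of CPM + 1 over the mean of the 12 libraries not of 17 dpf + 1. The 17 dpf columns are raised in every row, as the rule requires, and the median member is at 2.19 there and at 0.31 in the 14 dpf mean.

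The 2 Gene IDs with the highest scores rested on single transcripts and uneven replicates. Gene ID 108263051 had 30.0 CPM in replicate 1 of 17 dpf and 623 CPM in replicate 2. Its level was 13.5 and 14.1 CPM in the 3 dpf libraries, then 20.2 and 20.4 (5 dpf), 17.3 and 15.9 (13 dpf), 22.5 and 24.8 (14 dpf). The 16 dpf libraries had 22.6 and 20.5 CPM, those of 24 dpf 16.3 and 22.1. Only replicate 2 of 17 dpf stood far apart, and replicate 1 was 1.21 times the highest of the other 12 libraries. A single one of its 5 transcripts, TRINITY_DN147309_c6_g1_i1, held 1136 of the 1190 counts in replicate 2. That transcript had 1 count in replicate 1 and at most 1 in any other library. The score of 13.3 for this Gene ID is thus a value of a single library.

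Gene ID 560319, second by score at 9.09, had a single transcript. Its 17 dpf libraries had 58 and 17 counts, or 31.1 and 8.89 CPM. At 14 dpf it had 8 counts in each library, at 16 dpf 2 and 1 counts, and 0 counts in all libraries of 3, 5, 13 and 24 dpf. Both 17 dpf libraries were above all others, but they differed by 3.5 times. Its 17 dpf mean, 20 ± 15.7 CPM (SD, n = 2), is the lowest among the members and just inside the limit.

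Among the other steep members, those of ranks 4 and 5 had more even replicates. The member of rank 5, also with 1 transcript, had 75.7 and 73.8 CPM at 17 dpf, from 141 counts in each library. The other 12 libraries had between 2.25 CPM (replicate 2 of 5 dpf) and 10.8 CPM (replicate 1 of 14 dpf). The member of rank 4 had 69.2 and 59.1 CPM at 17 dpf and at most 8.33 CPM elsewhere, and its lower 17 dpf library was 7.1 times the highest other library, the widest such gap of the set. Both 17 dpf libraries of these 2 members were clear of all others.

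Across the set, the 17 dpf libraries differed by 1.36 times in the median member and by over 2 times in 15 members. Replicate 1 was higher in 67 members and replicate 2 in 31. In 48 members the lower 17 dpf library was at least 2 times the highest other library, and in 10 it was under 1.5 times. With only replicate 1 behind the 17 dpf value, 85 members would keep a score of at least 2, with only replicate 2, 76 would, and 63 would with each alone. Of the 15 members that differed by over 2 times, 12 had fewer than 20 transcripts, as had 57 of all 98 members. The median 17 dpf mean was 35.1 CPM in those 57 and 117 CPM in members with 20 or more transcripts.

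**Figure D3:**
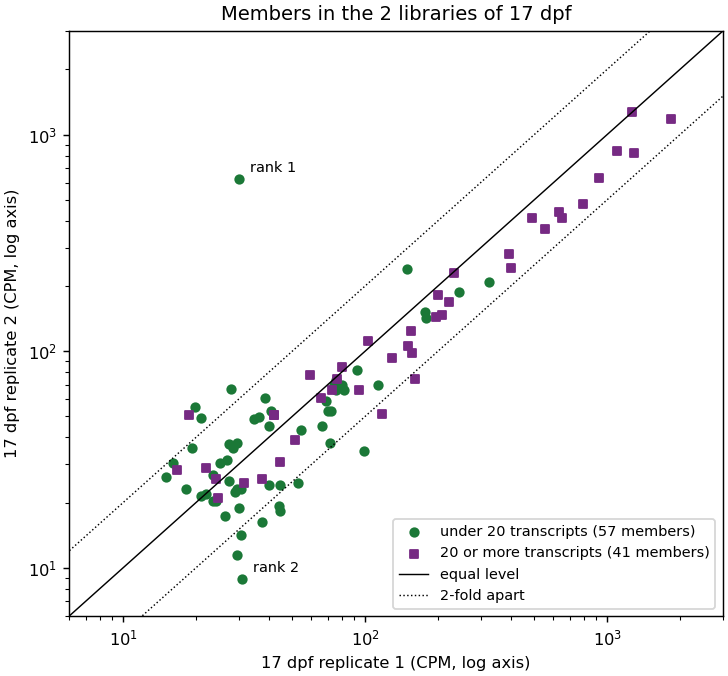
TMM-scaled level of each of the 98 members in replicate 1 (x axis) and replicate 2 (y axis) of 17 dpf, in CPM on log axes. Circles are members with fewer than 20 transcripts and squares those with 20 or more, and the dotted lines mark a 2-fold difference. Of the members, 15 lie outside the dotted lines, and rank 1 lies 20.7 times apart.

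Near the limits of the rule, values inside and outside were close. The 2 members with the lowest scores, 2.01 and 2.02, had 17 dpf means of 20.6 and 321 CPM against highest other means of 9.75 and 159 CPM. The 2 Gene IDs that narrowly missed the score, at 1.99 each, had 44.8 and 21.4 CPM at 17 dpf against highest other means of 21.97 and 10.3 CPM. At the limit on level, 19.9 and 19.8 CPM fell outside. Another 5 Gene IDs met every other step but were among the 60 left out, with 17 dpf means from 1811 to 6784 CPM.

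The members covered many more assembled transcripts per Gene ID than other Gene IDs, a property that the rule did not use directly. The median member had 15 transcripts, against 5 over all 18644 tested Gene IDs. Of the members, 41 (41.8%) had 20 or more transcripts, 26 had 50 or more and 13 had 100 or more, up to 1024. Over all tested Gene IDs, 5.91% had 20 or more, 0.885% had 50 or more and 0.295% had 100 or more. Among the 5903 tested Gene IDs with a 17 dpf mean of at least 20 CPM, the median was 9 and 15.6% had 20 or more transcripts. Why the number of transcripts went with the level was not tested. When only transcripts with 10 or more counts over the 14 libraries were counted, the median was 7 for members and 3 for all tested, and 22.4% and 1.49% had 20 or more.

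The same rule applied to the other 6 ages gave sets with fewer transcripts per Gene ID. It drew 48 Gene IDs for 3 dpf, 47 for 13 dpf, 60 for 14 dpf and 43 for 16 dpf. The sets of 5 and 24 dpf stopped at the limit of 150, from 322 and 324 that qualified. From the youngest age to the oldest, the median number of transcripts was 4.5, 8, 5, 4, 3 and 6, and 3.33 to 12% of each set had 20 or more. The 17 dpf set was not cut by the limit of 150. Over all Gene IDs that qualified before that limit, the median was 9 for 5 dpf and 7 for 24 dpf, and 13.4% and 10.8% had 20 or more. All sets passed the same level and score limits in their own age. The comparison is a description of these sets, and no test was made.

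**Figure D4:**
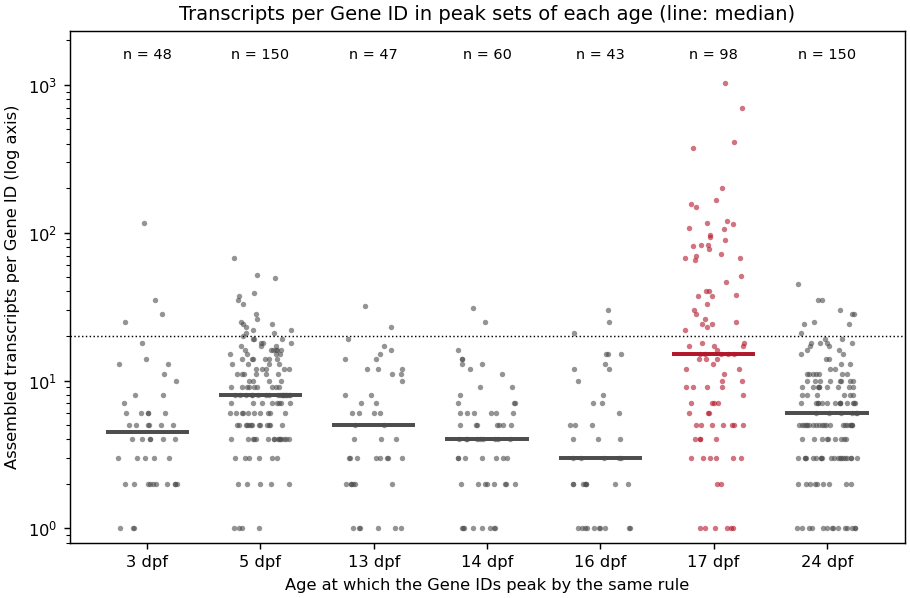
Assembled transcripts per Gene ID (log axis) for the sets that the same rule gives at each of the 7 ages, with each point a Gene ID, the line the median and the dotted line 20 transcripts. The 17 dpf set has a median of 15 and reaches 1024, and the other medians lie between 3 and 8.

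Of the members' transcripts with at least 10 counts, most had their highest TMM-scaled mean at 17 dpf. The 98 members had 5664 transcripts, of which 2033 had at least 10 counts in all. Of these, 1418 (69.7%) had their highest mean level at 17 dpf, against 17894 of 87469 (20.5%) among all transcripts of the table with that many counts. Another 247 were highest at 24 dpf and 149 at 14 dpf. Of the 90 members with 2 or more such transcripts, 19 had all of them highest at 17 dpf and 2 had just 1. The sums that chose the members are made of these same counts, so the excess over 20.5% is no separate evidence. At a limit of 10 counts, a few counts can decide the age, and the small TMM factors raise levels at 17 and 24 dpf. In 1 member, a transcript with 14 counts in all was placed at 24 dpf on 1 count there. Shares at unscaled totals are not given, here or for the single members below. The share of a member's 17 dpf counts on its largest transcript was 48.2% in the median, over 50% in 49 members, over 90% in 15 and as low as 4.49%.

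The 2 members with the highest levels were spread over many transcripts. The member ranked 73 had 1024 transcripts and 1840 and 1181 CPM at 17 dpf, against 651 and 722 CPM at 24 dpf and 115 to 269 CPM in the other 10 libraries. Of its 262 counted transcripts, 189 were highest at 17 dpf, and the largest held 4.49% of its 17 dpf counts. The member ranked 54 had 698 transcripts and 1263 and 1269 CPM at 17 dpf. It had 517 and 502 CPM at 24 dpf, 470 and 478 at 14 dpf and 182 to 319 in the other 8 libraries, and 145 of its 211 counted transcripts were highest at 17 dpf. Neither member rested on a single transcript or library. Members of the group with 20 or more transcripts held 77% of all member counts at 17 dpf.

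More member transcripts were seen at 17 dpf, which follows in part from choosing Gene IDs with high counts there and is given as a description. The 17 dpf libraries had at least 1 count on 3248 and 3049 of the 5664 transcripts, from totals of 3395340 and 2933985 counts. The 16 dpf libraries, with totals of 6402796 and 8837320, showed 2214 and 2486. The 24 dpf libraries showed 836 and 856 member transcripts and are the shallowest libraries of the series.

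Member Gene IDs were also linked through the assembly. A Trinity name holds a component, the cluster of overlapping reads from which the transcript was built, so Gene IDs in the same component can share sequence. Of the 98 members, 41 had a transcript in a component that held a transcript of another member. Among the sets of the other ages, 0 to 15.3% of Gene IDs did. The chance to share grows with the number of transcripts, and 31 of the 41 sharing members had 20 or more. Whether reads from near-identical copies were divided among such members was not tested. Their levels may therefore be uncertain and not independent of each other. The other 57 members shared no component within the set.

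The course of the members over the ages other than 17 dpf was tested, since the rule sets no direction among them. It does use these ages, through their highest mean and through the limit that all 12 of their libraries lie under those of 17 dpf. In edgeR's quasi-likelihood test over all 18644 Gene IDs, 89 of 98 members differed among the 6 ages at an adjusted p under 0.05. That was close to the 86.8% found over all Gene IDs. Consecutive comparisons share the libraries of an age, so each is given with its own counts. Members are a set chosen with results known, and the shares below are read only against their backgrounds.

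In percentage points, the share of members called lay furthest above both backgrounds in the step from 13 to 14 dpf. Taken as a multiple of the backgrounds, the share lower from 14 to 16 dpf, given next, lay further above them. At 14 dpf 52 of 98 members (53.1%) were higher than at 13 dpf and 2 were lower, against 23.5% higher and 24.3% lower over all tested Gene IDs. Among Gene IDs with a 17 dpf mean of at least 20 CPM, 25.2% were higher and 34.3% lower. The median log2 change of members was 0.62, with quartiles of 0.24 and 1.15, and 0.01 over all Gene IDs. The 13 dpf libraries lay apart, with median member levels of 6.58 and 9.26 CPM. The members' median change was 0.57 without replicate 1 of 13 dpf and 0.75 without replicate 2. It was 0.62 and 0.61 without replicate 1 and 2 of 14 dpf. At unscaled totals 39 members were higher and 4 lower, and 47.4% of all Gene IDs were called in either direction. By class, 21 of 41 members with 20 or more transcripts were higher (23.9% of all Gene IDs of that class) and 31 of 57 of the rest (23.5%). Without the 15 members whose 17 dpf libraries differed by over 2 times, 44 of 83 were higher. Among the 57 members that shared no component with another member, 28 (49.1%) were higher and 2 lower.

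From 14 to 16 dpf more members were lower than higher. At 16 dpf 38 of 98 (38.8%) were lower and 6 higher, against 15.7% lower and 17.9% higher over all tested Gene IDs and 16.5% and 28.1% among those at 20 CPM or more at 17 dpf. The median log2 change was -0.39. When any 1 of the 4 libraries of 14 and 16 dpf was left out, 20 to 23 members were lower and 4 or 5 higher, while the share of all Gene IDs called in either direction went from 33.6% to between 17.9% and 21.1%. Of the 41 members with 20 or more transcripts 21 (51.2%) were lower, against 24.1% of all Gene IDs of that class, and of the other 57 members 17 (29.8%), against 15.2%. Among the 57 members that shared no component with another member, 18 (31.6%) were lower and 5 higher.

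In the earliest step many members fell, as did other Gene IDs with a 17 dpf mean of at least 20 CPM, but a smaller share of members rose. From 3 to 5 dpf 36 of 98 (36.7%) were lower and 4 higher at 5 dpf, with a median log2 change of -0.53. Over all tested Gene IDs 20.4% were lower and 24.7% higher, but among those with a 17 dpf mean of at least 20 CPM 37.3% were lower, a share near that of the members. Of that background 19.4% were higher, against 4.08% of members, and its median log2 change was -0.23. It was set by the 17 dpf level and not by the level at 3 or 5 dpf. Of the members with 20 or more transcripts 25 of 41 (61%) were lower, against 28.3% of all Gene IDs of that class. Of the rest 11 of 57 (19.3%) were, against 20%, and the difference between the classes was not tested. Members that shared no component with another member gave 11 of 57 (19.3%) lower and 3 higher, with a median log2 change of -0.44. Without replicate 2 of 3 dpf, 23 members were lower and 3 higher, and the share of all Gene IDs called in either direction went from 45.2% to 32.2%. From 5 to 13 dpf 29 of 98 (29.6%) were higher and 12 lower, against 25.1% and 28.4% over all tested Gene IDs and 36% and 25.1% among those of 20 CPM or more. Of the members with 20 or more transcripts 20 of 41 (48.8%) were higher, against 30% of all Gene IDs of that class, and of the rest 9 of 57 (15.8%), against 24.8%.

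After the peak, members were compared between 24 and 16 dpf, the ages on either side of 17 dpf. At 24 dpf 29 of 98 (29.6%) were higher than at 16 dpf and 2 were lower, with a median log2 change of 0.33. Over all tested Gene IDs 19.6% were higher and 22.7% lower, with a median of -0.24. Among those with a 17 dpf mean of at least 20 CPM 43% were higher, more than among members, and 18.1% were lower. The direction depends on the scaling. Without TMM factors, at unscaled totals, 3 members were higher and 67 lower, while 81.1% of all Gene IDs were called in either direction and their median moved to -1.81. Relative to the median of all tested Gene IDs, members were 0.56 log2 units higher on both scales. Scaling shifts the log2 changes of all Gene IDs by about the same amount. That difference could therefore hardly change with the scale and is no check on the direction. With TMM, Gene IDs with a 17 dpf mean of at least 20 CPM had a median of 0.36, against 0.33 for members. Without replicate 2 of 24 dpf, 17 were higher and 2 lower, and the share of all Gene IDs called went from 42.3% to 29.3%. Of the members with 20 or more transcripts 22 of 41 (53.7%) were higher, against 45.8% of all Gene IDs of that class, and of the rest 7 of 57 (12.3%), against 18%. In the 57 members that shared no component with another member, 8 (14%) were higher and 1 lower. Their median log2 change was -0.13.

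From 3 to 24 dpf, 30 of 98 members (30.6%) were higher and 1 lower at 24 dpf. Over all tested Gene IDs 16.9% were higher and 15.6% lower, and 40.3% were higher among those of 20 CPM or more at 17 dpf. At unscaled totals 1 member was higher and 55 lower, when 73.6% of all Gene IDs were called in either direction with a median of -1.64, against -1.16 for members. Without replicate 1 of 24 dpf 17 members were called, all higher, and the share of all Gene IDs called went from 32.5% to 21.5%.

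**Figure D5:**
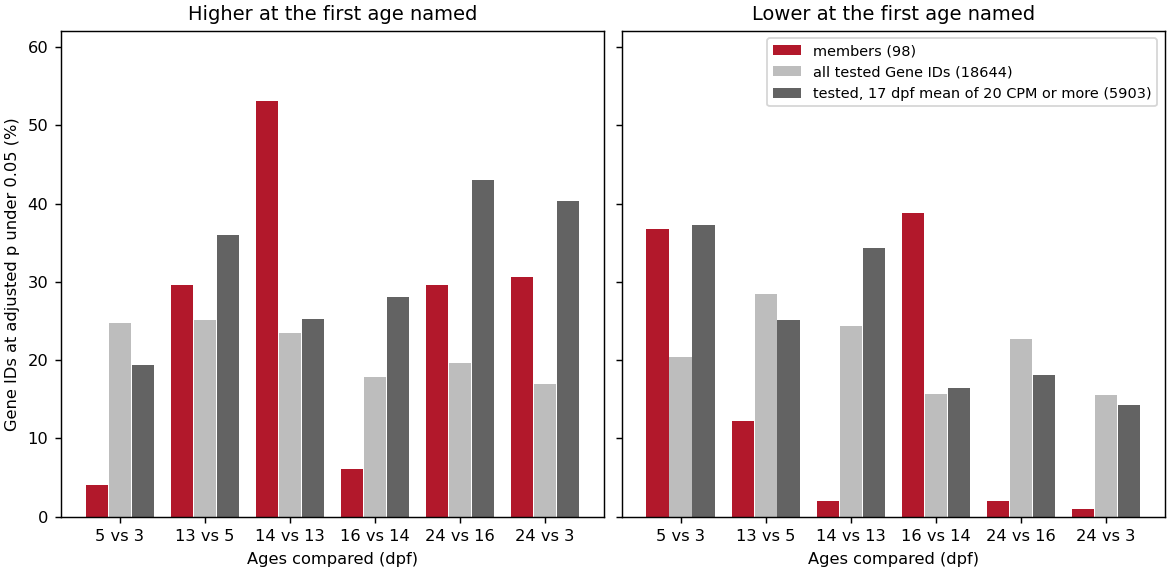
Percent of Gene IDs at an adjusted p under 0.05 in edgeR's test, higher (left) and lower (right) at the first age named, for the 98 members, all 18644 tested Gene IDs and the 5903 with a 17 dpf mean of at least 20 CPM. Members stand above both backgrounds for 14 against 13 dpf (53.1% higher) and for 16 against 14 dpf (38.8% lower).

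Gene ID 108275422, which covers 116 transcripts, had the largest rise from 16 to 24 dpf among members past the test. The 16 dpf libraries had 40.6 and 50.4 CPM, those of 17 dpf 794 and 480 CPM, and those of 24 dpf 285 and 335 CPM. At earlier ages it had 70.6 and 76.8 CPM (3 dpf), 33.2 and 28.6 (5 dpf), 64.6 and 51.4 (13 dpf) and 54.8 and 50.4 (14 dpf). The 24 dpf libraries were above all of 3 to 16 dpf and below both of 17 dpf. The log2 change was 2.76 ± 0.21 (SE; edgeR adjusted p = 2.3e-10), and 1.20 at unscaled totals.

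Gene ID 100149980, with 412 transcripts, rose by a log2 change of 2.46 ± 0.19 (SE; edgeR adjusted p = 3.62e-10), and by 0.88 at unscaled totals. Its level went from 63.6 and 64.2 CPM in the 16 dpf libraries to 1295 and 823 CPM one day later, and the 24 dpf libraries had 353 and 349 CPM. Earlier values were 89.8 and 114 CPM (3 dpf), 39.5 and 42.6 (5 dpf), 80.6 and 73.6 (13 dpf), 99.7 and 104 (14 dpf). Here too the 24 dpf libraries lay between those of 17 dpf and all the rest, and 88 of its 116 counted transcripts were highest at 17 dpf.

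The 2 members that were lower at 24 than at 16 dpf had few or no counts at 24 dpf. Gene ID 108272475 had 0 counts in both 24 dpf libraries. Its 16 dpf level was 3.65 and 5.68 CPM, from 31 and 66 counts, and its 17 dpf level 37.6 and 16.2 CPM. With the 24 dpf libraries set together at the floor, 3 counts in all, the drop from 16 dpf was at least 2.28-fold. The edgeR adjusted p of 0.0237 belongs to the fitted change and not to this bound. At 3, 5, 13 and 14 dpf it had 1.73 to 5.51 CPM, so it was low at every age but 17 dpf. The adjusted p was 0.125 without replicate 1 of 24 dpf and 0.127 without replicate 2.

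Gene ID 108255279 had 23.1 and 1.38 CPM in the 24 dpf libraries, from 17 counts and 1 count. The 16 dpf libraries had 30.1 and 27.6 CPM and those of 17 dpf 75.7 and 66.4 CPM. Before that it was low in 3 dpf (1.93 and 4.82 CPM) and 13 dpf (2.47 and 4.89 CPM) libraries, and higher in those of 5 dpf (12.4 and 14.0 CPM) and 14 dpf (12.3 and 12.1 CPM). The log2 change from 16 to 24 dpf was -1.23 ± 0.43 (SE; edgeR adjusted p = 0.0258). Without replicate 2 of 24 dpf it was -0.32 (edgeR adjusted p = 0.557), and without replicate 1 of 24 dpf it was -4.36 (edgeR adjusted p = 0.000304), so its size depends on which 24 dpf library is used. Without replicate 1 of 16 dpf the adjusted p was 0.0601.

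The age of the second highest mean shows how the members divide. For 40 members it was 14 dpf, for 37 it was 24 dpf, and for the other 21 an age among 3 (9 members), 16 (7), 5 (4) and 13 dpf (1). Among all 2979 tested Gene IDs with their highest mean at 17 dpf, 22.8% had 14 dpf second, 25.3% 24 dpf, 23.9% 3 dpf and 11.4% 16 dpf. Of the members with 20 or more transcripts 23 had 24 dpf second and 16 had 14 dpf, and of the rest 14 had 24 dpf and 24 had 14 dpf. At unscaled totals 2 members had 24 dpf second and 49 had 14 dpf. The lowest mean was that of 5 dpf in 46 members and that of 13 dpf in 19. It was 24 dpf in 13 members, 3 dpf in 12, 14 dpf in 5 and 16 dpf in 3.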

How the data were processed

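The authors deposited expected counts per assembled transcript in 14 columns. In each, 2.24 to 5.56% of the values were not whole. RSEM, Trimmomatic 0.36, FastQC, CASAVA 1.9.1 and DESeq2 are named, without order, per the submitters' processing notes. Not given in the sources used here are strand, filters and how Gene IDs were assigned. Of 172513 lines, the 5672 whose Gene ID holds letters (0.351 to 1.54% of counts) were left out. The other 166841 were summed per Gene ID and rounded. edgeR 4.0.16 in R 4.3.3 was used with filterByExpr (minimum count 10), which kept 98.4 to 99.5% of each library's counts, and with library sizes recomputed after it. Scaling was by TMM, and a quasi-likelihood F test had age as the only term over all 14 libraries. P-values were adjusted by Benjamini-Hochberg over all 18644 Gene IDs in each comparison, with a threshold of 0.05. Standard errors are the log2 change over the root of F. The fit was also run on simulated data, and the outcome of that run is not given here.

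The members, gene lists and tests were chosen with earlier results of these data known. Lists by gene symbol and cell type markers could not be used, since the table has no symbols. Named without symbols are, by the rule set for that case, the 2 members of highest score and, for 24 against 16 dpf, the 2 largest fitted rises and falls past the threshold. Other members are given by rank. Alternatives were scaling, filters, DESeq2 1.42.0, limma-voom (limma 3.58.1), a replicate block, left-out Gene IDs and left-out libraries. Floors cover counting error only.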

Additional observations from a re-analysis of the deposited data

How the results depend on the processing

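Unscaled totals and the count of transcripts with 10 or more counts were added after seeing the data. Of 361 alternative values, 327 kept their direction and stayed on the same side of the threshold (single Gene IDs), within 1.5 times (counts) or within 1 SD between the 17 dpf libraries (levels and ratios). Many of the alternatives leave out a library of an age that the comparison does not use. Such a library enters only through scaling and the shared spread, so the total of 327 does not measure how firm a single comparison is. At unscaled totals the direction reversed for 24 against 16 dpf (70 members called, 67 of them lower) and for 24 against 3 dpf (56 called, 55 lower). There 23 of the 98 members stayed when redrawn, 2 had 24 dpf second, the median 17 dpf level was 31.4 CPM and the median ratio to the highest other age 1.54. Upper-quartile scaling gave a median level of 56.0 CPM and a ratio of 2.90. Without the 60 Gene IDs highest at 17 dpf the level was 92.0 CPM, a result of smaller library totals. Redrawn on transcripts in place of sums, the rule gave 150 transcripts of 61 Gene IDs, 37 of them members. The median transcripts per member was 7 when only those of 10 or more counts were used.

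With 1 library left out at a time, its age keeps a lone library, which the fit assumes to vary like the other groups. Then 80 to 90 members were called among the 6 ages. The 5 against 3 dpf count was then 26 to 47, the 13 against 5 count 28 to 44 and the 14 against 13 count 43 to 61. Counts of 24 to 47 were found when 16 was set against 14, of 19 to 33 when 24 was set against 16, and of 17 to 32 when 24 was set against 3 dpf. Members that stayed when redrawn were 72 (without replicate 1 of 17 dpf) to 97. The median 17 dpf level was 50.6 to 56.1 CPM, the ratio 2.48 to 2.79, and 36 to 41 members had 14 dpf and 33 to 40 had 24 dpf second. Libraries of different ages share only a replicate number: deviations of libraries with the same number correlated at -0.07 to 0.05 in 21 pairs of ages. With the replicate block 88 members were called among the 6 ages, and in the order just given the pairwise counts became 41, 41, 54, 43, 32 and 31, which is within 1.5 times of each main count. Depth limits 24 dpf most, where 25 of 98 members had 50 or more counts over both libraries, against 98 at 17 dpf.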

Other observations

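Of the 5 Gene IDs left out as among the 60 highest at 17 dpf, the one with the highest level had a 17 dpf mean of 6784 CPM against 1660 CPM at its highest other age, a score of 4.08. The other 4 had scores of 2.03 to 2.47. When Gene IDs with letters were included, 97 Gene IDs were drawn, 0 of them with letters.

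Outside the set, 378 of 18546 tested non-members (2.04%) had a transcript in a component that also held a member's transcript. The like share was not computed for the sets of other ages. Of the members, 77 (78.6%) shared a component with at least 1 other tested Gene ID, against 53.8% of all tested Gene IDs.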
